A study of Mus musculus with 6 samples.

Results

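The 10 genes described here build the muscle acetylcholine receptor and the machinery that gathers it under the nerve ending. They are the receptor subunit genes Chrna1, Chrnb1, Chrnd, Chrne and Chrng, and the clustering genes Agrn, Lrp4, Musk, Dok7 and Rapsn. They were picked out by gene name from the 55421 genes in the table, and all 10 were found. Their RNA was measured by RNA-seq in C2C12, a line of mouse myoblasts able to form myotubes in culture, on day 4 of differentiation. All 6 libraries came from a cell model of myotonic dystrophy type 1 (DM1), in which C2C12 cells had been stably transfected with a GFP plasmid that carries 200 CUG repeats (CUG200). The control group (CUG200-ctrl, 3 libraries) also carried the empty vector, and the miR-322/-503 group (CUG200-m, 3 libraries) overexpressed the microRNAs miR-322 and miR-503. Both are drug-selected stable lines, 1 line per group, and the sources do not say whether a line grew from a single clone. The study's methods state in general that assays had 3 biological and 3 technical replicates, but neither they nor the labels say which kind the 3 libraries of a group are, so p-values measure only the spread between these libraries, which may be technical. A difference between the 2 lines and an effect of the microRNAs cannot be told apart with 1 line per group. The comparison asks how RNA levels in DM1 myoblasts differ when the microRNAs are overexpressed.

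At the neuromuscular junction, the motor nerve releases acetylcholine, which opens receptor channels packed densely in the muscle membrane. The nerve also secretes agrin, which binds LRP4 on the muscle surface and thereby activates the receptor tyrosine kinase MuSK. Dok-7 binds MuSK inside the cell and is needed for its full activity, and rapsyn holds the receptors together in clusters. Fetal and denervated muscle uses a receptor with a gamma subunit (Chrng), while innervated adult muscle replaces it with epsilon (Chrne). Cultured myotubes have no nerve, and the genes of the fetal receptor are switched on as myoblasts differentiate.

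In the miR-322/-503 group, the RNA of the 4 expressed receptor subunits was 1.29- to 1.52-fold higher than in the control, and that of the kinase gene Musk and the scaffold gene Rapsn was 1.44- and 1.47-fold higher. Lrp4, the agrin receptor, was 0.879-fold the control level, at the edge of the test's threshold. In bulk RNA, a difference in the number of cells that express a gene and a difference in the RNA per cell cannot be told apart. Dok7 and Agrn did not pass the test, and Chrne was at or below the detection floor in every library. Of the 9 genes that could be tested, 6 were higher and 1 lower at an adjusted p under 0.05 (edgeR quasi-likelihood test, Benjamini-Hochberg adjustment over 18140 genes). Over all genes tested, 13.2% were higher and 15.5% lower. The median log2 fold change was 0.50 for the 9 tested genes and -0.01 for all genes tested. All 9 fold changes lay within 1 and -1 on the log2 scale, so 0 of the 10 genes met the study's additional limit on fold change, against 9.87% of all genes tested. The CPM values of the groups did not overlap for 7 of the 9 genes, and for 45.1% of all genes tested.

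Total estimated counts lay between 73532084 and 92157388 per library, and a read pair contributed about 4 counts. A gene was taken as undetected in a library at or below 12 counts, or 3 read pairs, a limit that covers counting error only. Differences between the groups are given on CPM, the counts scaled to each library's TMM-normalized size. Levels of different genes are compared on TPM, which is also scaled to gene length. These libraries do not check the overexpression itself, since the precursor genes Mir322 and Mir503 were not tested and had at most 17 and 6 counts in any library.

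The sequences of the overexpressed microRNAs (RefSeq, GRCm38.p6) are shown because their seeds, bases 2 to 8 in capitals, are what pairs with target RNAs. Both genes lie on the minus strand of chromosome X, at chrX:53054306-53054327 for miR-322-5p and chrX:53054027-53054049 for miR-503-5p. The seeds share their first 6 bases and differ in the last.
mmu-miR-322-5p: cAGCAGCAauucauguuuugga
mmu-miR-503-5p: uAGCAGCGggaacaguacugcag

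Matches to these seeds were looked for in the longest annotated 3′UTR of each gene (GENCODE M21). Rapsn held the miR-322 site TGCTGCT and Dok7 held the miR-503 site CGCTGCT, each once, and the other 8 genes held neither. Among 13416 tested genes with a 3′UTR of at least 50 bases, 24.4% held TGCTGCT, 4.87% held CGCTGCT and 27.2% held either. The sites are printed with their flanks, the site in capitals. The Rapsn site begins at base 131 of a 3′UTR of 211 bases, and the Dok7 site at base 15 of 1191. Rapsn RNA was higher in the miR-322/-503 group and Dok7 RNA did not pass the test. A match of letters is a description and does not show that a microRNA binds there.
Rapsn: agaggcctgctTGCTGCTcctct
Dok7: agcaggctggcCGCTGCTagatc

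Promoters are shown for 4 genes that were higher together, because E-boxes, the sequence CANNTG bound by MyoD and other myogenic basic helix-loop-helix factors, are a well-known feature of receptor subunit promoters. RefSeq promoters, 250 bases before to 50 after the start, were matched for 7 of the 10 genes. No entry was matched for Chrnd, Rapsn and Lrp4. The windows below (GRCm38.p6) are Chrna1 at chr2:73580289-73580588, minus strand, Chrnb1 at chr11:69795888-69796187, minus strand, Chrng at chr1:87205561-87205860, plus strand, and Musk at chr4:58285712-58286011, plus strand. Each is written 5′ to 3′ on the gene's strand with every E-box in capitals. The RefSeq start used for Chrng lies 1154 bases inside the gene's outer bound.
Chrna1: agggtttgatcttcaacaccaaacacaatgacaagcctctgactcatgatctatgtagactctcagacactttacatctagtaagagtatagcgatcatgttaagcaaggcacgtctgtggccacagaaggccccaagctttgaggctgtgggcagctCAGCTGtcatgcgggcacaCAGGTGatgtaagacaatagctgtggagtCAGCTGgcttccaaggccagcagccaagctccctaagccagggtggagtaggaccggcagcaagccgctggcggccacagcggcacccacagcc
Chrnb1: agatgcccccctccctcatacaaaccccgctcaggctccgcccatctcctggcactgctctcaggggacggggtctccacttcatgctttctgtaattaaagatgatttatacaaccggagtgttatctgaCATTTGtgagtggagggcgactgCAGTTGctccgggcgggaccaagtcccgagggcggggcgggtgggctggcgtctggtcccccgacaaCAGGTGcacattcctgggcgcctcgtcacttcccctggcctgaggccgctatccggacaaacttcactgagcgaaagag
Chrng: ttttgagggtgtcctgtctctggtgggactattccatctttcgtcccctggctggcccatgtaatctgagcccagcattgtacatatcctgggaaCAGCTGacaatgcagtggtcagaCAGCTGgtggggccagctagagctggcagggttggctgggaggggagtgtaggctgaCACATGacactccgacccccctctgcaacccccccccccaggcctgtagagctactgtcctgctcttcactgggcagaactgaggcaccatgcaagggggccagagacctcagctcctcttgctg
Musk: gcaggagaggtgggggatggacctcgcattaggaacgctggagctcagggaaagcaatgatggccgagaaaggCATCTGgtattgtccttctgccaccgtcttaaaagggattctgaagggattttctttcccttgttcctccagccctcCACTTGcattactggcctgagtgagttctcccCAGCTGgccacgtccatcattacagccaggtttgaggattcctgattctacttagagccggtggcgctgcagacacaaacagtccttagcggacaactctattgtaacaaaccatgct

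Each of these 4 windows held 3 E-boxes. Of all 32851 promoters of the same length, 72.3% held at least 1, 39.6% at least 2 and 17.6% at least 3. CANNTG reads the same on both strands, so each match was counted once. The form CAGCTG, which is included in CANNTG, occurred 2 times for Chrna1, 2 times for Chrng, 1 time for Musk and 0 times for Chrnb1. At least 1 CAGCTG was present in 16.3% of all promoters and at least 2 in 1.9%. The Chrna1 E-boxes were centred 89, 70 and 41 bases before the start, and those of Chrnb1 116, 93 and 26 bases before it. Those of Chrng lay 152, 129 and 72 bases before the start, and those of Musk 174, 97 and 65 bases before it. Chrne, which was not detected, held 1 E-box, of the form CAGCTG. The 2 starts of Dok7 held 1 and 0 E-boxes, and the 2 starts of Agrn 0 and 1. A match does not show that a factor binds there.

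**Figure D1:**
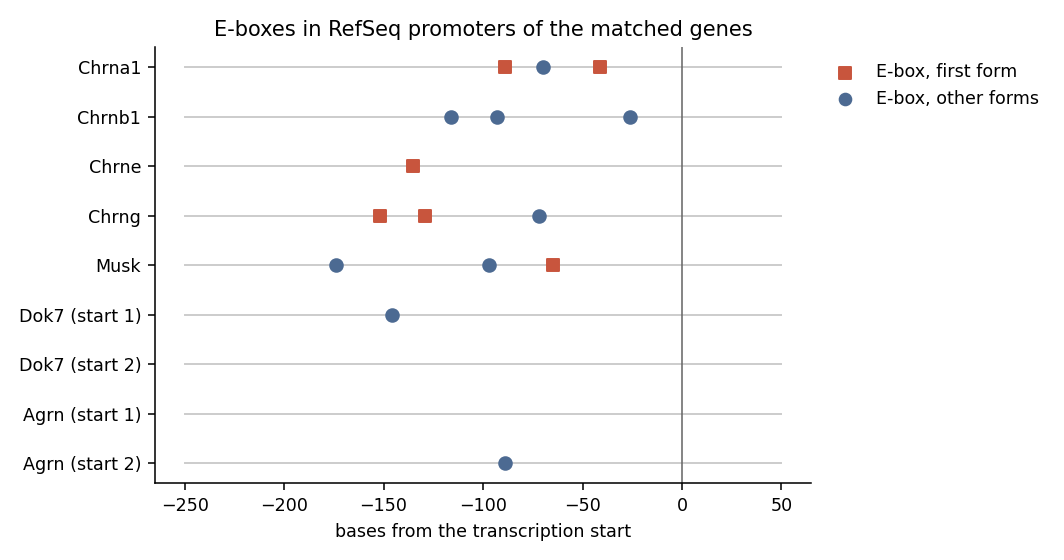
Positions of E-boxes in the RefSeq promoter windows of the matched genes, as the distance in bases from the transcription start (x axis, 0 at the start), with 1 row per promoter. Squares mark the form CAGCTG and circles the other forms of CANNTG, and the windows of Chrna1, Chrnb1, Chrng and Musk each carry 3 marks.

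Chrna1 encodes the alpha subunit, which carries most of the acetylcholine binding site. It had the highest level of the 10 genes, with a TPM of 349.7 ± 18.2 (SD, n = 3) in the control and 525 ± 5.04 in the miR-322/-503 group. Its CPM was 824, 835 and 763 in the control libraries, against 1190.1, 1214 and 1279 with miR-322/-503. Every miR-322/-503 library was above every control library. The log2 fold change was 0.60 (SE 0.06, 95% interval 0.47 to 0.74), or 1.52-fold, with an adjusted p of 0.000243 (edgeR). The gene lies on the minus strand of chromosome 2 at chr2:73563215-73580338.

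Chrnb1 encodes the beta subunit, which completes the receptor ring and is a target of tyrosine phosphorylation when receptors cluster. Its CPM was 86.6, 84.0 and 80.3 in the control libraries, against 107, 108 and 109 with miR-322/-503. The groups did not overlap, and the miR-322/-503 libraries lay close together. The log2 fold change was 0.37 (SE 0.05, 95% interval 0.25 to 0.49), or 1.29-fold, with an adjusted p of 0.00165 (edgeR), the smallest of the 6 rises. On the TPM scale the libraries spread more, 90.4 ± 13.7 against 116 ± 12.3, and limma on log2(TPM + 1) gave nearly the same difference, 0.37, with an adjusted p of 0.138. This alternative differs from edgeR in both the scale and the test. Chrnb1 lies at chr11:69784036-69795943, minus strand.

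Chrnd encodes the delta subunit, which forms a binding site together with alpha. Its CPM was 86.4, 84.4 and 74.3 in the control libraries, against 121, 124 and 117 with miR-322/-503. The lowest miR-322/-503 library was above the highest control library. The delta subunit gene had a log2 fold change of 0.56 (SE 0.07, 95% interval 0.40 to 0.73), or 1.48-fold, with an adjusted p of 0.000917 (edgeR).

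Chrng encodes the gamma subunit of the fetal receptor. Its CPM was 180.5, 171 and 157 in the control libraries, against 243, 228 and 249 with miR-322/-503. These groups did not overlap either. Its log2 fold change was 0.50 (SE 0.07, 95% interval 0.33 to 0.67), or 1.41-fold, with an adjusted p of 0.00181 (edgeR). Chrnd at chr1:87190607-87200070 and Chrng at chr1:87204657-87212694 lie in a row on the plus strand, 4586 bases apart.

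Chrne encodes the epsilon subunit of the adult receptor. It had 11, 8 and 2 estimated counts in the control libraries, against 4, 0 and 0 with miR-322/-503. All 6 values were at or below the floor of 12 counts, so the gene was not tested and no fold is given. The floor corresponds to a TPM between 0.145 and 0.184 for this gene. In every library, Chrng TPM was at least 728-fold above that floor. Chrne lies at chr11:70614883-70619216, minus strand, and was not detectable at this depth in either group.

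**Figure D2:**
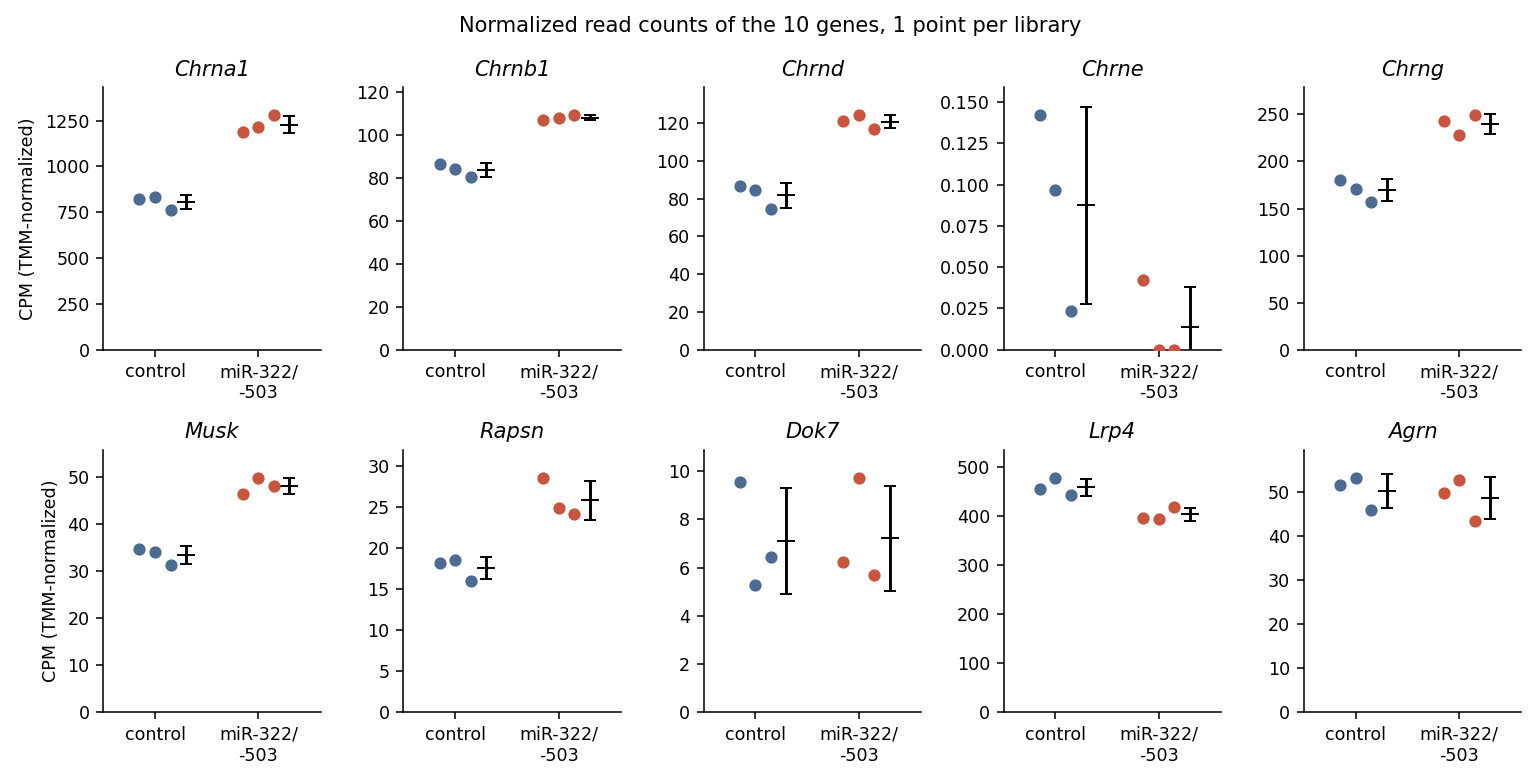
CPM of each of the 10 genes in every library (y axis from 0, TMM-scaled, 1 panel per gene), for the control and the miR-322/-503 group, with the mean and SD of 3 libraries as a bar. The groups are apart for Chrna1, Chrnb1, Chrnd, Chrng, Musk, Rapsn and Lrp4, and they overlap for Dok7 and Agrn. The Chrne values correspond to at most 11 counts, and its lower SD bar is cut at 0.

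The subunits can be set beside each other per length. In the control, the order of TPM was Chrna1 (349.7), Chrng (129 ± 10.1), Chrnb1 (90.4), Chrnd (64.7 ± 7.14) and Chrne below its floor, and in the miR-322/-503 group it was Chrna1 (525), Chrng (183 ± 3.96), Chrnb1 (116), Chrnd (95.1 ± 10.3) and Chrne. Chrnb1 and Chrnd, the lowest pair of detected neighbours, did not differ beyond the sum of their SDs in the miR-322/-503 group. Within each library of both groups, however, Chrnb1 was above Chrnd. The summed TPM of the 5 subunits was 673, 645 and 583 in the control libraries, against 933, 928 and 897 with miR-322/-503. The sums did not overlap, and their means were 634 ± 46.5 and 919 ± 19.3 (exact two-sided permutation test, p = 0.1, the smallest value that 3 against 3 libraries can give).

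The share of each subunit in this sum was also compared. Chrng made up 20.3% ± 0.16 of the sum in the control and 19.9% ± 0.657 in the miR-322/-503 group (exact permutation p = 0.5). Chrna1 made up 55.2% ± 1.45 and 57.1% ± 1.08 (exact permutation p = 0.2), Chrnb1 14.2% ± 1.31 and 12.6% ± 1.13 (exact permutation p = 0.3), and Chrnd 10.2% ± 0.447 and 10.3% ± 0.967 (exact permutation p = 1.0). The shares of each of these 4 subunits overlapped between the groups. The ratio of Chrna1 to Chrng TPM was 2.64, 2.72 and 2.80 in the control libraries, against 2.80, 2.97 and 2.82 with miR-322/-503, the groups just apart before rounding (exact permutation p = 0.1). The ratio of Chrna1 to Chrnb1 estimated counts was 9.65 ± 0.242 in the control and 11.4 ± 0.303 in the miR-322/-503 group, without overlap (exact permutation p = 0.1), but on the TPM scale the same ratio overlapped, at 3.91 ± 0.433 and 4.54 ± 0.47 (exact permutation p = 0.3). Over the 23 sums, shares and ratios computed, the smallest Benjamini-Hochberg adjusted value of these exact permutation tests was 0.383.

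**Figure D3:**
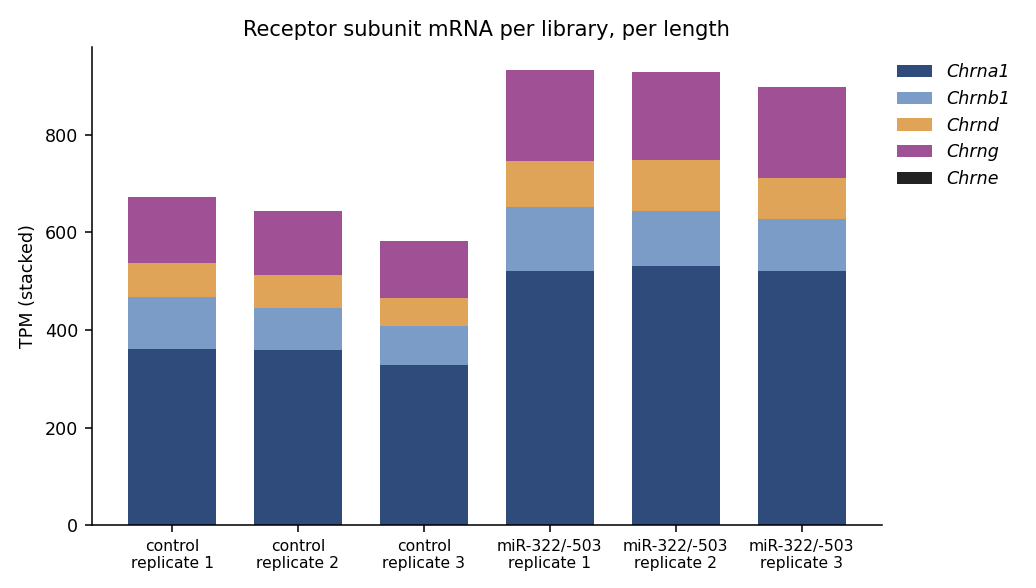
TPM of the 5 receptor subunit genes stacked for each library (y axis from 0). The total lies between 583 and 673 in the control and between 897 and 933 in the miR-322/-503 group, Chrna1 is the largest layer throughout, and Chrne is too low to be seen.

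Musk encodes the kinase that starts receptor clustering. Its CPM was 34.7, 34.1 and 31.2 in the control libraries, against 46.4, 49.7 and 48.0 with miR-322/-503. All 3 miR-322/-503 libraries were above all 3 control libraries. For Musk the log2 fold change was 0.53 (SE 0.07, 95% interval 0.36 to 0.69), or 1.44-fold, with an adjusted p of 0.00123 (edgeR). The gene lies at chr4:58285960-58374303, plus strand.

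Rapsn encodes rapsyn, the scaffold that binds receptors on their inner face. Its CPM was 18.1, 18.5 and 16.0 in the control libraries, against 28.5, 24.8 and 24.1 with miR-322/-503. The groups did not overlap, and the first miR-322/-503 library was the highest. This gave a log2 fold change of 0.56 (SE 0.10, 95% interval 0.32 to 0.79), or 1.47-fold, with an adjusted p of 0.00548 (edgeR). The ratio of Rapsn to Chrna1 TPM was 0.0601 ± 0.00178 in the control and 0.0587 ± 0.00703 in the miR-322/-503 group (exact permutation p = 0.8). Rapsn (chr2:91035620-91045729, plus strand) overlaps the annotated antisense RNA Gm13778, which had at most 49 counts in a library, and the sources used here do not state whether reads were assigned by strand.

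Lrp4 encodes the agrin receptor that activates MuSK. Its CPM was 454, 477 and 442 in the control libraries, against 396, 394 and 418 with miR-322/-503. Every miR-322/-503 library was below every control library. The log2 fold change was -0.19 (SE 0.06, 95% interval -0.32 to -0.05) with an adjusted p of 0.0478 (edgeR). The direction held in all 14 alternative analyses, with log2 fold changes of -0.212 to -0.157. However, the adjusted p ranged from 0.0401 to 0.125 over these analyses and missed the threshold in 10. The ratio of Musk to Lrp4 TPM was 0.172, 0.160 and 0.158 in the control libraries, against 0.260, 0.283 and 0.252 with miR-322/-503, with no overlap (exact permutation p = 0.1). Lrp4 remained the more abundant of the pair in every library.

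Dok7 encodes the adaptor that MuSK needs for full activity. Its CPM was 9.54, 5.29 and 6.45 in the control libraries, against 6.24, 9.71 and 5.69 with miR-322/-503. The groups overlapped, and the highest and lowest libraries of each group differed more than the group means. The log2 fold change was 0.02 (SE 0.27, 95% interval -0.62 to 0.67) with an adjusted p of 0.963 (edgeR). The interval includes changes as large as those of Musk and Rapsn, so such a change was not detectable. Dok7 lies at chr5:35056766-35087839, plus strand.

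Agrn encodes agrin, which muscle cells also make, although only the nerve's splice form clusters receptors strongly. Its CPM was 51.6, 53.3 and 46.0 in the control libraries, against 49.8, 52.9 and 43.6 with miR-322/-503. The groups overlapped. The log2 fold change was -0.05 (SE 0.09, 95% interval -0.26 to 0.17) with an adjusted p of 0.764 (edgeR). The tables give levels per gene, so splice forms were not analysed here. Agrn lies at chr4:156165290-156197488, minus strand.

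Per length, the clustering genes were ordered Lrp4, Rapsn, Musk, Agrn and Dok7 in both groups. Lrp4 TPM was 117 ± 4.92 in the control and 103 ± 2.25 in the miR-322/-503 group. Rapsn TPM was 21 ± 1.69 and 30.8 ± 3.63, and Musk TPM was 19.1 ± 1.30 and 27.3 ± 1.53. Their levels lay close together, with Rapsn above Musk in every library. Agrn TPM was 14.6 ± 0.878 and 13.8 ± 1.77, and Dok7 TPM was 5.20 ± 1.29 and 5.61 ± 1.74.

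**Figure D4:**
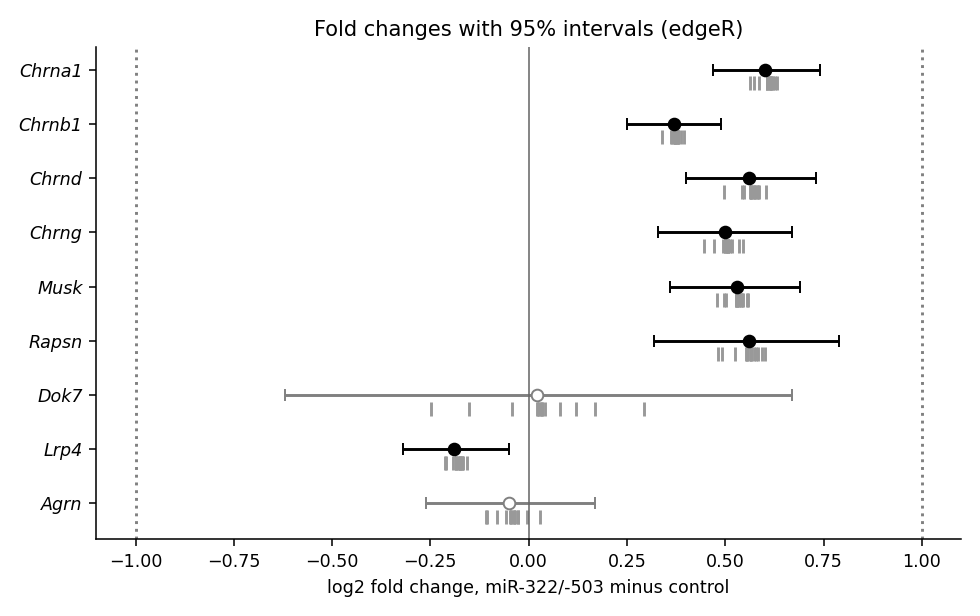
Log2 fold change of each tested gene, miR-322/-503 over control (x axis), with its 95% interval from edgeR. The intervals of Chrna1, Chrnb1, Chrnd, Chrng, Musk and Rapsn lie above 0, that of Lrp4 ends at -0.05, and those of Dok7 and Agrn include 0. Chrne was not tested.

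The positions of the genes were compared with those of their neighbours. The 41 other tested genes within 1 Mb of Lrp4 had a median log2 fold change of -0.11 (1 higher, 6 lower), and the 32 near Rapsn also had a median of -0.11 (1 higher, 5 lower). Rapsn and Lrp4 lie 411781 bases apart on chromosome 2, so their windows overlap and the medians are not separate observations. The genes themselves differed in direction. The 25 genes near Chrnd and Chrng had a median of 0.24 (6 higher, 1 lower), and the 14 near Chrna1 a median of 0.14 (5 higher, 0 lower). Near Musk, 18 genes had a median of 0.15 (3 higher, 5 lower). The 99 genes near Chrnb1 had a median of -0.02 (4 higher, 13 lower). Dok7, which did not pass the test, had 29 neighbours with a median of 0.27 (10 higher, 2 lower), and Agrn, which did not pass either, had 44 with a median of -0.13 (0 higher, 11 lower). The 75 genes near the undetected Chrne had a median of 0.01 (3 higher, 9 lower). Its window overlaps that of Chrnb1, which lies 818939 bases away. Of all genes tested, 13.2% were higher and 15.5% lower. The other tested genes of the whole chromosome had medians of 0.17 on chromosome 5 (Dok7) and -0.19 on chromosome 4 (Musk and Agrn). On chromosome 1 (Chrnd and Chrng) the median was 0.03, on 2 (Chrna1, Rapsn and Lrp4) 0.02, and on 11 (Chrnb1 and Chrne) -0.01. The part of the neighbours and of the chromosomes in the results was not tested.

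Genes that mark skeletal muscle differentiation also differed between the groups. Of 12 such genes, 7 were higher, 1 was lower and 4 did not pass the test, with a median log2 fold change of 0.38, where 13.2% of all genes tested were higher and 15.5% lower. Tnnt3, a fast-muscle troponin T, was 155 ± 22.3 CPM in the control and 319 ± 10.6 in the miR-322/-503 group (log2 fold change 1.04, adjusted p = 0.000297, edgeR). Ckm, the muscle creatine kinase, and Actn2, a Z-disc actinin, were higher by 0.87 and 0.86 on the log2 scale. Myog, the myogenic factor myogenin, was the gene that was lower. The embryonic and perinatal myosin genes Myh3 and Myh8, the actin gene Acta1 and the fusion gene Mymk, named after their values were seen, had log2 fold changes of -0.05, -1.09, 0.09 and -0.41 and did not pass. The summed TPM of the 12 genes was 3629.9 to 3989 across control libraries, against 4491 to 4687 with miR-322/-503. The part of the muscle genes in the rise of the receptor genes was not tested.

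Markers of other cells at the junction were also measured. Of 12 motor nerve terminal genes, 5 were at or below the floor in every library and 2, Chat and Mnx1, which define cholinergic motor neurons, were at 0 throughout, and the median log2 fold change of the 7 tested was -0.12. The summed TPM of the list was 38.2 to 39.9 across control libraries, against 47.3 to 52.6 with miR-322/-503, with Syn1 higher (0.89) and Syt1 lower (-2.67) on the log2 scale. Of 8 Schwann cell genes, 2 were at or below the floor in every library, among them Sox10, the defining factor of the lineage, at 0, and the median of the 6 tested was -0.22. Their summed TPM was 236 to 238 across control libraries, against 124 to 161 with miR-322/-503, most of it from Pmp22 (230 ± 0.802 and 91.5 ± 15.4 TPM), and Gap43 was higher by 3.36. Of 12 fibroblast, macrophage and endothelial genes, 5 were at or below the floor in every library, 2 were higher (Tek and Dpt) and 1 lower (Pdgfra), with a median of 0.11. Their summed TPM was 41.8 to 43.7 in the control and 45.8 to 51.2 with miR-322/-503. The macrophage gene Adgre1 was at 0. The macrophage genes Cd68 (2.47 and 3.44 CPM) and Csf1r (0.756 and 0.643 CPM) were above the floor in every library and did not pass. The part of these other markers in the results was not tested.

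Beyond the 10 genes, 7 lists of 148 further genes cover the rest of the pathway. Of the 122 tested, 34 were higher, 31 lower and 57 did not pass, with a median log2 fold change of -0.02. Over all genes tested, 13.2% were higher and 15.5% lower. Among 16 other acetylcholine receptor genes, neuronal and muscarinic, 11 were at or below the floor in every library, 7 of them at 0. The 2 that could be tested were the muscarinic receptor gene Chrm4, which fell from 1.51 ± 0.0904 to 0.296 ± 0.0748 CPM (log2 fold change -2.34, adjusted p = 0.00081, edgeR), and the neuronal subunit gene Chrnb2, with 2.68 and 2.50 CPM.

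Of 17 tested genes for receptor assembly and synaptic anchoring, 4 were higher and 2 lower, with a median of 0.05. Sntb1, a syntrophin of the dystrophin complex, rose from 12.1 ± 0.3 to 49.2 ± 2.49 CPM (log2 fold change 2.03, adjusted p = 3.52e-06, edgeR). The intermediate filament gene Des was higher by 0.65 on the log2 scale, and the sarcoglycan gene Sgca was lower, at -0.67. Utrn, which encodes the utrophin concentrated beneath receptor clusters, had 222 and 234 CPM and a log2 fold change of 0.08 that did not pass (adjusted p = 0.363, edgeR).

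Of 36 tested genes for agrin, LRP4 and MuSK signaling, 7 were higher and 9 lower, with a median of -0.06. The members with the largest changes were lower. Tiam1, an exchange factor for Rac, had 51.0 ± 1.96 CPM in the control and 10.2 ± 0.715 with miR-322/-503 (log2 fold change -2.33). Camk2b, a calcium-dependent kinase, and Fzd9, a Wnt receptor, had log2 fold changes of -2.01 and -1.34.

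Of 18 tested genes for esterases and the synaptic basal lamina, 7 were higher and 7 lower, with a median of 0.08. The collagen IV gene Col4a1 fell from 559.7 ± 25.6 to 124 ± 13.0 CPM (log2 fold change -2.17), and the laminin gene Lama4 from 70.5 ± 5.89 to 17.6 ± 1.05 (log2 fold change -2.0). Another collagen IV gene, Col4a6, was higher by 2.20 on the log2 scale, at 0.391 and 1.80 CPM. Ache, the acetylcholinesterase gene, had 1.14 ± 0.457 and 0.513 ± 0.121 CPM and did not pass (adjusted p = 0.0621, edgeR), and Colq, its collagen tail, had 1.40 and 1.49 CPM.

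Genes for synaptic transcription and neuregulin signaling had the most rises of the 7 lists, 14 of 27 tested, with 5 lower and a median of 0.35. Mef2c, a muscle transcription factor, rose from 1.90 ± 0.513 to 23.3 ± 3.14 CPM (log2 fold change 3.61), and the histone deacetylase gene Hdac9 was higher by 2.67. Msc, a repressor of E-box-dependent transcription, had 10, 0 and 0 counts in the control libraries, against 115, 64 and 110 with miR-322/-503, or at least 7.97-fold higher, taking the floor of 12 counts per library as the control level. Of the myogenic factors named by the rule, Myod1 was higher (46.6 ± 5.94 to 60.1 ± 2.06 CPM, log2 fold change 0.37, adjusted p = 0.027, edgeR) and Myog was lower (203 ± 15.8 to 122 ± 10.2 CPM, log2 fold change -0.74, adjusted p = 0.000665, edgeR). Of the 4 ETS factor genes in the list, Etv1, Etv4 and Gabpa were higher, by 0.70, 0.56 and 0.20 on the log2 scale, and Etv5 was lower, at -0.46. The neuregulin gene Nrg1 was lower (67.4 ± 2.77 to 28 ± 6.69 CPM, log2 fold change -1.27, adjusted p = 0.000833, edgeR). Of its receptor genes, Erbb3 was higher by 0.63, Erbb4 was below the floor in every library, and Erbb2 had a log2 fold change of -0.29 that did not pass (adjusted p = 0.0647, edgeR).

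Of 13 genes known to rise when muscle loses its nerve, 2 were higher and 6 lower, with a median of -0.40. Those lower included the potassium channel gene Kcnn3 (-1.45), Arpp21 (-1.31), Myog and the adhesion gene Ncam1 (-0.40, 585 ± 9.86 to 442 ± 36.3 CPM). Hdac4, a histone deacetylase that accumulates after denervation, was higher by 0.75. This denervation list leaves out the 10 genes described here, among them Chrng, the subunit used by denervated muscle, which was higher. The 11 tested glycosylation genes had a median of -0.10. Gmppb and Gmppa, which encode the subunits of GDP-mannose pyrophosphorylase, were lower (-0.91 and -0.43), while Gfpt1 did not pass (-0.10).

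**Figure D5:**
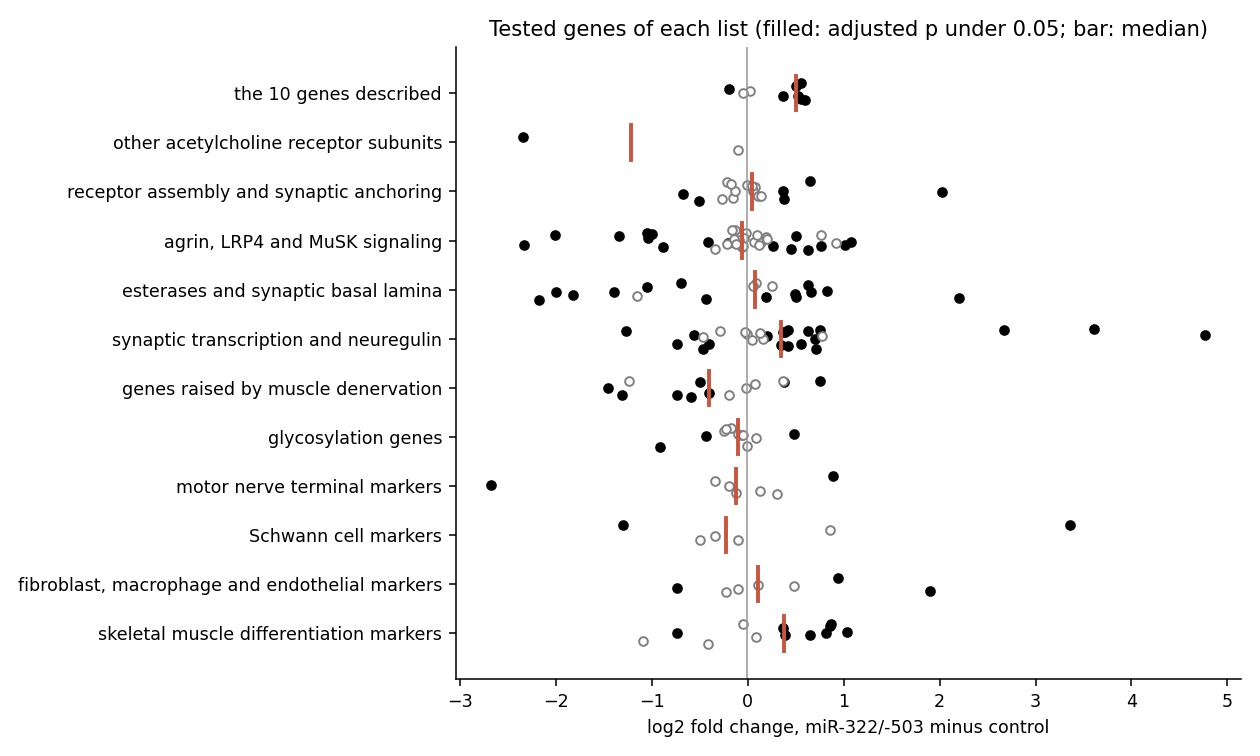
Log2 fold changes, miR-322/-503 over control (x axis), of the tested genes of each list, 1 row per list, with the median marked and the genes at an adjusted p under 0.05 filled. The median of the 10 genes described here, 9 of them tested, is 0.50. That of the muscle differentiation markers is 0.38, that of synaptic transcription and neuregulin 0.35 and that of the genes raised by denervation -0.40. The rightmost point, Msc, is a fitted value against a control group below the floor.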

How the data were processed

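Per the labels and the study's methods, the authors used Trim Galore for read filtering, HISAT2 for alignment (GRCm38) and StringTie for the tables. Versions and the annotation are not given in the sources used here. The deposited table holds unnormalized estimated counts per gene as whole numbers, and the deposited table of each library holds coverage, FPKM and TPM. Coverage per count was 74.98 to 74.99 bases and low genes peaked at 300 covered bases, hence about 4 counts per read pair. FPKM was not used further.

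Of 55421 gene IDs, 55240 were found in GENCODE M21. Counts were tested with edgeR 4.0.16 (filterByExpr, TMM, glmQLFit, glmQLFTest) in R 4.3.3, 3 libraries against 3 with no covariate, and adjusted by Benjamini-Hochberg over 18140 genes at 0.05. The study's limit on fold change is a log2 of 1 in either direction. TMM factors were 0.977 to 1.03. Shares and ratios were compared with exact two-sided permutation tests (scipy 1.17.1). CPM and TPM are given as mean ± SD. Promoters and microRNAs came from RefSeq tables (GRCm38.p6), and 3′UTRs from GENCODE M21. DESeq2 1.42.0, limma 3.58.1 on log2(TPM + 1), other scalings and filters, counts per read pair, a replicate block and leaving out each library were run as alternatives.

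The 10 genes and the lists were chosen with earlier results of these data known. Text names all 10 genes, 11 fixed list genes (Ache, Colq, Utrn, Erbb2, Erbb3, Etv5, Gabpa, Myog, Myod1, Ncam1, Gfpt1) and up to 3 genes per list with the largest change at an adjusted p under 0.05. Chrnb2, Etv1, Etv4, Nrg1, Erbb4, Chat, Mnx1, Sox10, Adgre1, Cd68, Csf1r, Myh3, Myh8, Acta1 and Mymk were named outside that rule. They were named after their values were seen. A gene that the rule selects is not reported here.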

Additional observations from a re-analysis of the deposited data

How the results depend on the processing

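The rises of Chrna1, Chrnd, Chrng, Musk and Rapsn kept their direction and passed the threshold in all 14 alternatives, with log2 fold changes of 0.564 to 0.631 for Chrna1, 0.498 to 0.604 for Chrnd, 0.446 to 0.545 for Chrng, 0.48 to 0.557 for Musk and 0.482 to 0.601 for Rapsn. Chrnb1 kept its direction in all 14 and passed in 13, limma on log2(TPM + 1) being the exception (adjusted p = 0.138). Lrp4 lost its call in 10 of 14, so that the count of lower genes among the 10 fell from 1 to 0 with RLE size factors (adjusted p = 0.0594), upper-quartile size factors (0.067), no filter on low counts (0.0624), limma (0.0858) and without any 1 of the 6 libraries (0.0537 to 0.125, lower genes 0 to 0). The count of higher genes among the 10 was 6 to 6 without 1 library. Values that did not pass changed sign for Agrn without miR-322/-503 replicate 3 (0.0292), with a range of -0.108 to 0.0292 over the left-out libraries, and for Dok7 without control replicate 2 (-0.151), control replicate 3 (-0.0411) or miR-322/-503 replicate 2 (-0.249), with a range of -0.249 to 0.293. With limma, 1571 of all genes were higher (2401 with edgeR), 383 were higher and 560 lower past the fold limit (832 and 959 with edgeR), and 21 list genes were higher (34 with edgeR). The cause was not tested. Without 1 library, 1792 to 2056 of all genes were higher and 2217 to 2491 lower, 715 to 806 and 886 to 965 of them past the fold limit, and 26 to 32 list genes were higher and 28 to 31 lower. The Chrng share differed by -0.374 percentage points, by -0.696 to -0.0391 without 1 library and by -0.589 from counts per kilobase of exon. Same-numbered libraries of the 2 groups deviated together only in part (correlations 0.241, 0.137 and 0.096, not all over 0.1), although all 6 libraries correlated best with their own number, a hint from the data and not the design. With a replicate block, 6 of the 10 genes were higher and 1 lower, as without it, and 2667 of all genes were higher and 3066 lower. The scalings moved the median log2 fold change of all genes by little, from -0.0183 with limma to 0.0111 with upper-quartile factors. A log2 ratio of Chrng to Chrne was planned and is not given, since Chrne was at 0 in 2 libraries and at or below the floor in all.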
